A study of Caenorhabditis elegans with 2 samples.

Results

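The collagen genes of Caenorhabditis elegans were taken as the protein-coding genes of the WBcel235 annotation whose symbol starts with col-, together with 16 genes named for their mutant phenotypes (the dpy, sqt, rol, bli, emb and let genes given below). There were 172 of them among 19973 protein-coding genes, 156 with a col- symbol, and 3 col- symbols annotated as pseudogenes were left out. Where the zinc finger protein Y95B8A.8, or zfr-1, sits on DNA had been mapped by chromatin immunoprecipitation and sequencing in whole young adults of strain RW12277 at 63 hours. A CRISPR insertion in these animals, st12277, fuses the protein to TY1, EGFP and 3xFLAG at its own gene, and the precipitation used an antibody to GFP. The animals had been synchronised by bleaching and starving as L1 larvae, and the chromatin was sonicated to 200 to 800 bp. There was 1 group of 2 samples, labelled biological replicates 1 and 2. All animals carried the tag, chromatin came from every tissue at once, and no test over samples exists for 1 group. The labelled tissue and stage cannot be checked by expression in peak lists, and the control library was not analysed here.

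Most worm collagens are cuticle collagens, short secreted proteins built of repeats of glycine followed by 2 further residues, often proline. The hypodermis, the epithelium under the cuticle, makes a new set at each moult, trims and cross-links them, and lays them down as the outer coat of the animal. The type IV collagens are a separate, longer kind that forms the network of the basement membrane under muscle and other tissues. A precipitation from whole animals averages the cells that make collagen with all the others.

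The deposited list called on both replicates held 1694 peaks, each with a summit and a signal, a value from the authors' peak caller that was compared only within a list. A collagen gene was counted as having a peak when a summit of this thresholded list lay within 1000 bp of one of its annotated 5′ ends. By that count 4 of the 172 collagen genes had a peak, a share of 2.33% (exact Clopper-Pearson 95% interval 0.637 to 5.85%, counting error only), against 1289 protein-coding genes, or 6.45%. They were col-63, col-85, col-185 and col-38, each a member of the col- series, and none of the 16 collagen genes with another name was among them. The share of all genes lay above the interval of the collagen genes, whose 4 signals of 88.6 to 100.1 all lay above the list's median of 78.6.

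The sequences under these peaks show what else lies at the sites. The peak of col-85 (chrII:12494596-12494885, ce11, plus strand) and that of col-185 (chrX:13511875-13512164, ce11, minus strand) are printed 5′ to 3′ on the strand of the tRNA gene that each holds, in capitals. The peak of col-38 (chrII:8569390-8569679, ce11, minus strand, the strand of col-38) holds no tRNA gene, and its capitals mark the 21 bases centred on the summit.
col-85: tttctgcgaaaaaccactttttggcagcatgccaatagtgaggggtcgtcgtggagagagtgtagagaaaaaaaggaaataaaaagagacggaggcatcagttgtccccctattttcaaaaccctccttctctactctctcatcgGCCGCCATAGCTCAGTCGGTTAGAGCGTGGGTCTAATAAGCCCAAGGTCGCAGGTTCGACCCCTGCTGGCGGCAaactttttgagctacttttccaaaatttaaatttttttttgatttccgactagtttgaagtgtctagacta
col-185: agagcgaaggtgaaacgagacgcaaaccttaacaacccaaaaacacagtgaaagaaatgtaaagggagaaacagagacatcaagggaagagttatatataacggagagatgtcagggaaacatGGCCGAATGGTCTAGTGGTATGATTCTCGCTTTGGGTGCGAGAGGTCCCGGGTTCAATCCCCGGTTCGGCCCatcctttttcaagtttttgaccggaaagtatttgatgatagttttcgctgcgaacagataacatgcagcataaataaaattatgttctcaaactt
col-38: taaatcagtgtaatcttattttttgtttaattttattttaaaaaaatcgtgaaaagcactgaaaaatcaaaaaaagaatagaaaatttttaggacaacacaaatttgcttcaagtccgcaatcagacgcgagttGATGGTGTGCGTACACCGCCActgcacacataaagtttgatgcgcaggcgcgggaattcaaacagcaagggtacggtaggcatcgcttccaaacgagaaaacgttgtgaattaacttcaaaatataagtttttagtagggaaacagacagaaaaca
The letters GTTCNANNC, with N any base, spell the B box, an internal promoter element of tRNA genes read by RNA polymerase III. They were searched on both strands and occurred once in the col-85 peak, at base 199 of the printed strand, once in the col-185 peak, at base 175, and in neither strand of the col-38 peak. The 2 matches lie inside the capitals, so they belong to the annotated tRNA genes and are no separate finding. Of the 1694 peaks of the list, taken as 290 bp windows, 17.4% held a match. The 3 windows had a G+C content of 44.8% at col-85, 42.8% at col-185 and 35.9% at col-38, against a median of 40.7% over the list.

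The col-85 summit (II, base 12494741) fell in an intron of col-85, 354 bp downstream of its 5′ end, on the first base of T21B4.t1, a tRNA-Ile gene of 74 bp on the opposite strand of col-85. The non-coding RNA gene T21B4.19 covers the same bases on the strand of col-85. The peak had a signal of 89.6 (rank 602 of 1694). In the ranked lists of the single replicates, which hold weaker peaks as well, the strongest peak near col-85 had a signal of 40.9 in replicate 1 and 47.0 in replicate 2. The replicate 1 summit lay 457 bp downstream of the 5′ end and the replicate 2 summit 347 bp downstream, so that they were farther apart than the 100 bp taken as one site. Neither replicate alone placed this peak in its thresholded list, the scores being 571 in replicate 1 and 695 in replicate 2. The score is computed from the IDR, the irreproducible discovery rate, which is low where a peak keeps its rank in repeated calls. It is 1000 at most and was at least 830 in every thresholded list, the score of a rate of 0.01.

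The col-185 summit (X, base 13512020) lay 923 bp upstream of col-185, inside H06A10.t1, a tRNA-Pro gene of 72 bp, and inside the non-coding RNA gene H06A10.3 on the other strand. Its signal was 88.9 (rank 611). Replicate 1 alone held it in its thresholded list, with a signal of 51.9 and a score of 857 (rank 475 of 733), whereas replicate 2 had a signal of 32.1 and a score of 280 at the site. The peak was thus past the threshold in replicate 1 and in the list of both replicates, and below it in replicate 2.

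Both tRNA genes are members of repeated families. The 74 bp of T21B4.t1 occurred 20 times in the genome without a mismatch, and 5 of these copies had a thresholded summit within 250 bp. The signal of the strongest ranked peak at the 17 copies with one ran from 3.71 to 89.6 (median 57.8), and the copy in col-85 was the highest. The 72 bp of H06A10.t1 occurred 24 times, 4 copies had a thresholded summit within 250 bp, and the 22 copies with a ranked peak had signals of 16.4 to 130.7 (median 43.0), among which the copy at col-185 was number 4. Reads that lie wholly inside such a copy cannot be placed by their sequence, and the sources used here do not say how the authors treated them. The part of this repetition in the col-85 and col-185 peaks was not tested. A tRNA gene lay within 1000 bp of a 5′ end of 3 collagen genes, col-85, col-185 and col-54, and the first 2 had the peak. Of the 213 protein-coding genes with such a tRNA neighbour, 56 had a thresholded peak at it, or 26.3%. Without summits within 250 bp of a tRNA, snRNA or snoRNA gene, 2 collagen genes were left, col-38 and col-63 (1.16%), against 5.91% of all protein-coding genes.

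The col-38 peak had a signal of 88.6 (rank 618) and lay between col-38 and rpl-5, a gene of the large ribosomal subunit transcribed the other way. The 5′ ends of the 2 genes are 839 bp apart, and the summit (II, base 8569535) was 447 bp upstream of col-38 and 392 bp upstream of rpl-5, so rpl-5 was the nearer. It also lay inside the non-coding RNA genes F54C9.16 and F54C9.17, which overlap on opposite strands. At the site replicate 1 had a signal of 42.1 and a score of 705. Replicate 2 had a signal of 40.6 and a score of 493 there, and both scores were under the threshold. Of 20 collagen genes with a divergent protein-coding 5′ end within 1000 bp, 1, col-38, had a neighbour with a peak. A peak was present at 6.45% of all protein-coding genes, and the share over all divergent neighbours was not computed. When each peak was given to its nearest 5′ end alone, col-38 dropped out and 3 collagen genes were left (1.74%, interval 0.361 to 5.01%), against 4.76% of all protein-coding genes, a value inside that interval.

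The highest signal at a collagen gene, 100.1 (rank 442), belonged to col-63 on chromosome I (8245499 to 8245788). The summit lay 681 bp upstream of col-63 and inside the 3′ UTR of the next gene on the same strand, ceh-8, a homeobox gene, 139 bp before its 3′ end. The non-coding RNA gene ZK265.11 began 22 bp away. Replicate 2 held this peak in its thresholded list with a signal of 52.1 and a score of 1000 (rank 396 of 667), and replicate 1 had a signal of 44.9 and a score of 725, short of the threshold. Of the 4 sites, this was the one with neither a tRNA gene at the summit nor a nearer protein-coding 5′ end.

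**Figure D1:**
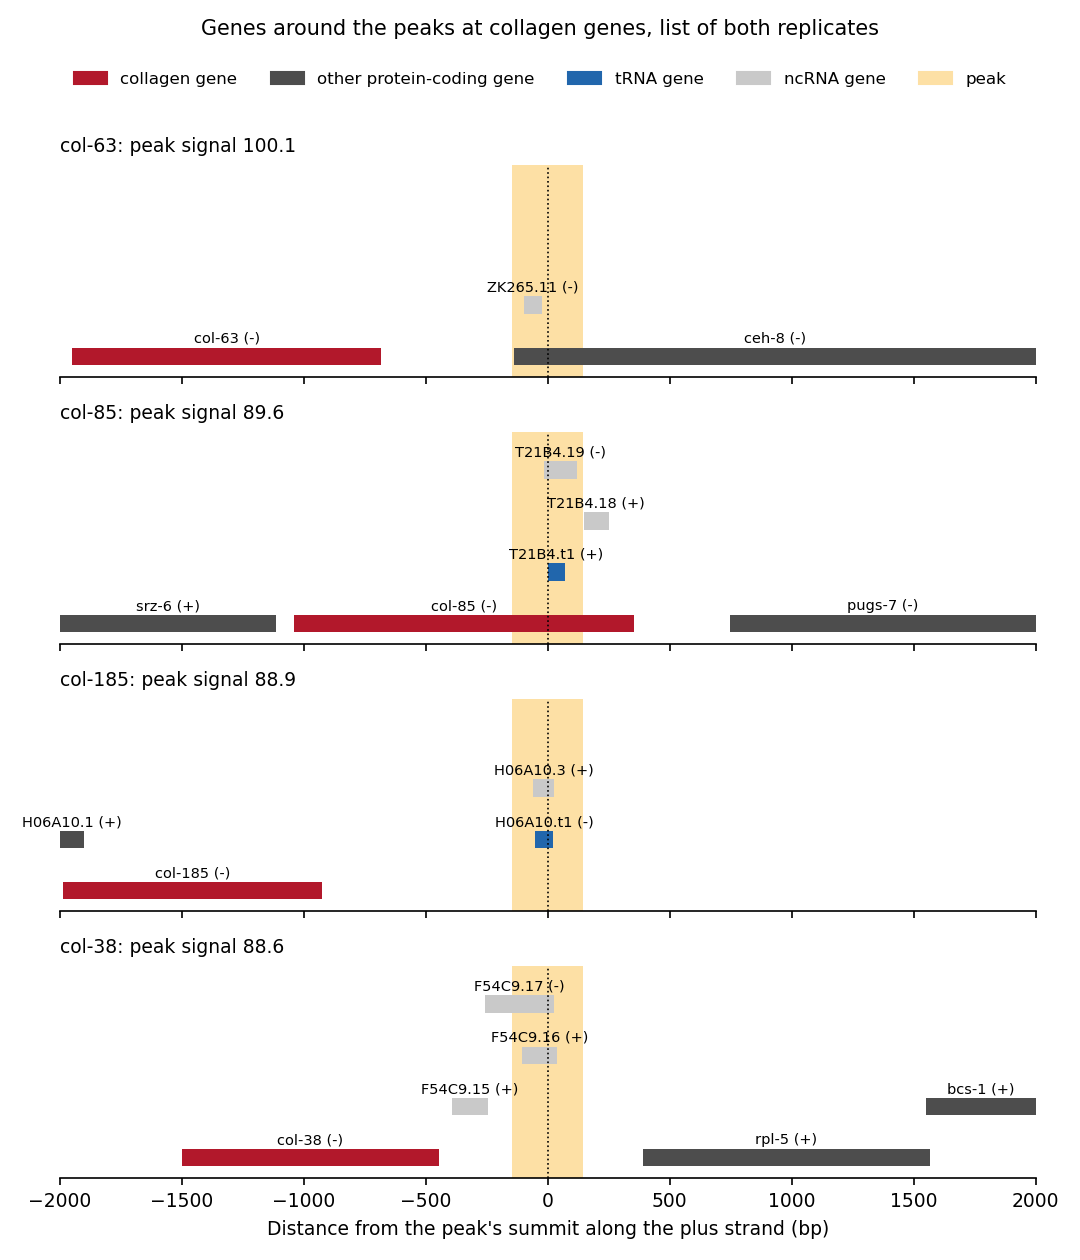
Gene neighbourhoods of the 4 collagen peaks in the list called on both replicates, with the distance from the summit in bp along the plus strand on the x axis. Bars are genes with their strand, the shaded band is the peak and the dotted line its summit. The summit lies on a tRNA gene at col-85 and col-185, between col-38 and rpl-5, and in the 3′ end of ceh-8 upstream of col-63.

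None of the 4 summits was close to the start of its collagen gene. Within 250 bp of a 5′ end no collagen gene had a thresholded summit, which allows a share of up to 1.74% by a limit of 3 counts and up to 2.12% by the exact interval, against 558 protein-coding genes, or 2.79%. Of the genes with a peak, 0 of the 4 collagen genes and 43.3% of the 1289 protein-coding genes had it within 250 bp. The median distance between 5′ end and summit was 564 bp at the 4 collagen genes and 294 bp at the 1289 protein-coding genes. A summit within 250 bp of a tRNA gene was found at 2 of the 4, against 4.5% of the 1289. Just inside the limit of 1000 bp lay col-185 at 923 bp. Just outside lay col-181 (X, signal 93.2, 1076 bp downstream), with the tRNA gene W03G11.t1 and the gene W03G11.2 within 250 bp of the summit, and col-106 (IV, signal 80.3, 1094 bp downstream), with the NAD kinase gene nadk-1 as close. Further out, the peak at col-94 (III, signal 117, 1829 bp upstream) lay inside the snRNA gene W05B2.8 and the dynein heavy chain gene dhc-4.

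The other thresholded lists named 2 more collagen genes. The conservative list, with 1538 peaks, held the same 4 and col-111, 5 in all (2.91%, interval 0.95 to 6.65%), against 5.93% of all protein-coding genes, inside that interval. The col-111 peak (IV, 4655705 to 4655994) had a signal of 55.9 and a score of 922 there (rank 1420 of 1538), and a score of 783 in the ranked list of both replicates. Its summit lay in a coding exon of col-111, 714 bp downstream of an annotated 5′ end inside the gene. It was 59 bp from the 3′ end of col-111 and 2124 bp from its outermost 5′ end. The same base is the last of psr-1, a gene for the engulfment of dying cells that runs toward col-111. Replicate 1 gave signals of 31.7 and replicate 2 of 34.5 near col-111. The list of replicate 1 held 2 collagen genes, col-185 and col-72 (1.16%, interval 0.141 to 4.14%), against 3.05% of all protein-coding genes. That of replicate 2 held col-63 (0.581%, interval 0.0147 to 3.2%), against 3.09%. Both of these shares of all genes lay inside the interval of the collagen genes. The col-72 peak (II, 3523576 to 3523845, signal 46.6, score 859, rank 609 of 733) lay in an intron 469 bp downstream of a 5′ end. Replicate 2 had no ranked peak near col-72, and the ranked list of both replicates gave it a signal of 53.7 and a score of 709. No collagen gene stood in the thresholded lists of both single replicates. With 2 and 1 collagen genes in these lists, that count says little, and the share of all protein-coding genes was not computed.

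The ranked lists reach far below the threshold and give a level for most collagen genes. In the ranked list of both replicates, with 95095 peaks, 144 collagen genes (83.7%, interval 77.3 to 88.9%) had a summit within 1000 bp, against 79.5% of all protein-coding genes. Replicate 1 had one at 113 collagen genes (65.7%), against 61.1%, and replicate 2 at 116 (67.4%), against 63.5%. With such backgrounds the presence of a ranked peak says little of a gene, and the level is given instead. The strongest peak per gene had a median signal of 32.0 at collagen genes, against 30.8 at all protein-coding genes. The upper ends ran the other way, with a 90th percentile of 52.3 at collagen genes, against 57.2. The highest signal was 100.1, against 617, but a maximum rises with the number of genes, here 144 against 15872. Among all protein-coding genes, with those without a peak placed lowest, the median collagen gene stood at percentile 58.6, and 14 of the 172 collagen genes (8.14%) stood in the top 10% of all genes, a share near that background. In the single replicates the median percentile was 56.7 in replicate 1 and 51.5 in replicate 2. The median collagen gene thus lay near the middle of all protein-coding genes.

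**Figure D2:**
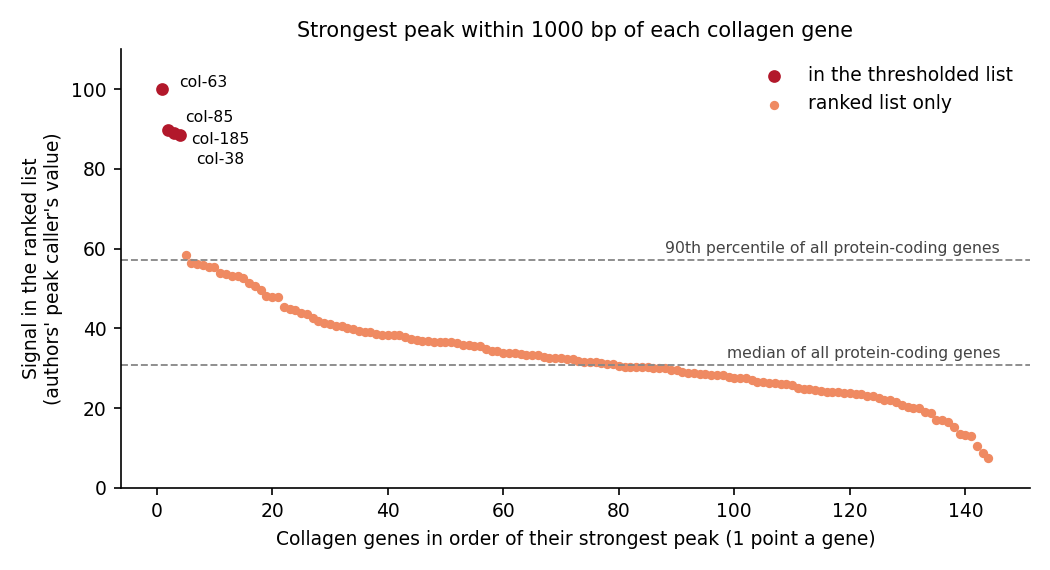
Signal of the strongest peak within 1000 bp of each of the 144 collagen genes that have one, from the ranked list of both replicates, with the genes in order along the x axis. Dark points are the 4 genes in the thresholded list, which lie at 88.6 to 100.1, apart from the next value of 58.5, and the dashed lines are the median (30.8) and the 90th percentile (57.2) of all protein-coding genes.

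Below the first 4, the next in order were col-71, col-139, col-110, col-111, col-44 and col-9, with signals of 55.3 to 58.5. The strongest of them, col-71 (II), had a signal of 58.5 and a score of 685, 300 bp upstream of its 5′ end, with 35.9 in replicate 1 and 23.6 in replicate 2 at the site. The col-139 peak (V) had a signal of 56.3 and a score of 663 in the gene's body, 746 bp downstream of the 5′ end, with 31.3 in replicate 1 and 21.2 in replicate 2. At col-110 (IV) the signal was 56.0, with 25.4 in replicate 1 and 28.0 in replicate 2, and the score of 822 was the closest to the threshold. One peak of signal 55.3 served both col-44 and col-9 on X, 460 bp upstream of col-44 and 980 bp downstream of the 5′ end of col-9, with 32.1 in replicate 1 and 21.8 in replicate 2. At none of these 6 genes did a single replicate exceed 35.9, below the 40.6 to 52.1 that col-63, col-85 and col-38 reached in both. Of the 144 collagen genes, 8 had their strongest peak in common with another collagen gene. Sharing with other genes, and its share over all protein-coding genes, was not counted.

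The band of scores just under the threshold held a larger share of the collagen genes than of all protein-coding genes. Their strongest peak had a score of 540 to 829, with 540 the score at a rate of 0.05, in 15 of 172 cases (8.72%), against 905 protein-coding genes (4.53%). Among the 15, col-44 and col-9 shared a peak, as did col-159 and col-160, and sharing among all protein-coding genes was not counted. The single replicates did not show the larger share. The band held 3 collagen genes in replicate 1 (1.74%), against 2.09% of all protein-coding genes, and 1 in replicate 2 (0.581%), against 1.83%.

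The collagens with known roles in the coat were read by structure. The furrow collagens dpy-2, dpy-3, dpy-7, dpy-8, dpy-9 and dpy-10 form the circumferential furrows of the cuticle, and their loss shortens the animal. None had a thresholded peak, against 6.45% of all protein-coding genes, and 4 of the 6 had a ranked one in the list of both replicates, against 79.5%, with a median signal of 25.1. A class of 2 to 6 genes is too small to be told from these backgrounds by its counts. The signal there was 33.4 at dpy-7, 31.1 at dpy-3, 19.1 at dpy-2 and 16.5 at dpy-9, while dpy-8 and dpy-10 had none. In the single replicates dpy-7 had 17 in replicate 1 and 16.4 in replicate 2, from summits at different places, dpy-3 had a peak in replicate 2 alone, at 12.4, and dpy-8 in replicate 1 alone, at 7.73. All 6 furrow collagen genes were thus at or below percentile 66.1 of all protein-coding genes.

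The other collagen genes of body shape, dpy-5, dpy-13, sqt-1, sqt-2, sqt-3 and rol-6, whose mutants are short, squat or roll about their long axis, had no thresholded peak either. Of these 6, 5 had a ranked peak, with a median signal of 33.3. The highest was dpy-13 with 36.4 in the list of both replicates, and it had 22.2 in replicate 1 and 11.1 in replicate 2. Its replicate 2 summit lay 589 bp downstream of the 5′ end, against 388 bp in the list of both replicates. The signal was 33.3 at sqt-3 and at rol-6, 28.4 at sqt-1 and 27.0 at sqt-2. In the single replicates the strongest peak within 1000 bp of sqt-3 had 13.2 in replicate 1 and 20.4 in replicate 2. That of rol-6 had 15.4 in replicate 1 and 19.4 in replicate 2, and at each gene the summits lay apart. The sqt-3 summit in the list of both replicates lay 998 bp downstream. Within 100 bp of it replicate 1 had 21.8, from a summit past the 1000 bp limit, and replicate 2 had 13.1. All 5 were thus at or below percentile 72.5 of all protein-coding genes. No peak stood near dpy-5 in the list of both replicates, and replicate 1 alone gave it 15.4. Neither sqt-1 nor sqt-2 had a peak in replicate 2, and in replicate 1 the signal was 23.8 at sqt-1 and 22 at sqt-2.

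The strut collagens bli-1 and bli-2, which build the columns between the layers of the adult cuticle and whose loss causes fluid-filled blisters, were the highest of the classes fixed by name. The signal of bli-1 was 43.8 (score 577, 804 bp downstream of the 5′ end), with 22.5 in replicate 1 and 31.1 in replicate 2. At bli-2 it was 38.3 (score 323, 163 bp upstream), with 25.6 in replicate 1 and 19.8 in replicate 2. The replicate 2 peak of bli-2 lay at another place, 336 bp downstream. Both struts lay between the median and the 90th percentile of all protein-coding genes and under the threshold. The type IV basement membrane collagens emb-9, the alpha 1 chain, and let-2, the alpha 2 chain, were lower. The signal was 28.3 at emb-9, 939 bp upstream, and 30.4 at let-2, 711 bp downstream, each near the median of all protein-coding genes. In replicate 1 let-2 had 21.3 and emb-9 had no peak, while in replicate 2 let-2 had 18.1 and emb-9 had 12.1. The replicate 2 peaks lay at other places, 64 bp downstream at let-2 and 373 bp downstream at emb-9. Over the 156 col- genes, 131 had a ranked peak, with a median signal of 32.3 and a range of 7.59 to 100.1, a range that spans every class named here. For 28 collagen genes the ranked list of both replicates held no peak, and some of these, such as dpy-5, dpy-8 and dpy-10, had one in another ranked list.

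In the ranked lists the strongest peak of a collagen gene lay downstream at a larger share than that of all protein-coding genes, which is a description with no test. It lay downstream of the 5′ end at 103 of the 144 (71.5%), against 48.9% of the 15872 protein-coding genes with a peak, and at least 500 bp downstream at 65 (45.1%), against 21.5%. The median position relative to the 5′ end, with downstream positive, was 425 bp at collagen genes, against −17 bp at all protein-coding genes. In replicate 1 the share at least 500 bp downstream was 39.8%, against 21.1%, and in replicate 2 it was 47.4%, against 22.3%. The strongest summit fell in a coding exon of the gene itself at 86 collagen genes (59.7%), against 25.4% of all protein-coding genes. That share was 55.8%, against 25.3%, in replicate 1 and 62.1%, against 25.4%, in replicate 2. The same order held in each of these lists.

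Collagen genes are short, with a median length of 1226 bp, against 2027 bp for all protein-coding genes, and length sets how much of a window is gene body. Among genes shorter than 2000 bp, the share at least 500 bp downstream was 44.2% at collagen genes, against 24.2%, and the share in the gene's own coding exons was 65%, against 28.3%. The base composition moved with the position. A 290 bp window around the strongest summit had a median G+C content of 51.4% at collagen genes, against 38.3% at all protein-coding genes, and 56.6% where the summit was in the gene's own coding exons, against 40.0%. From 500 to 750 bp downstream of the outermost 5′ end, the median G+C content of the sequence itself was 56.6% in collagen genes, against 36% in all protein-coding genes, and that bin held 41.3 ranked summits per 100 collagen genes, against 25.3. In the 250 bp upstream of the 5′ end the G+C content was 36.8%, against 33.2%, and there were 26.2 ranked summits per 100 collagen genes, against 26.7. The excess of summits was largest in the bins from 250 to 1000 bp downstream, which also had the highest G+C content. The other bins did not all go this way. From 1000 to 750 bp upstream there were 27.3 summits, against 25, at a G+C content of 34.6%, against 34.8%. In the first 250 bp downstream there were 26.7, against 27.5, at 40.4%, against 37.6%. The part of base composition in these peaks under the threshold was not tested.

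**Figure D3:**
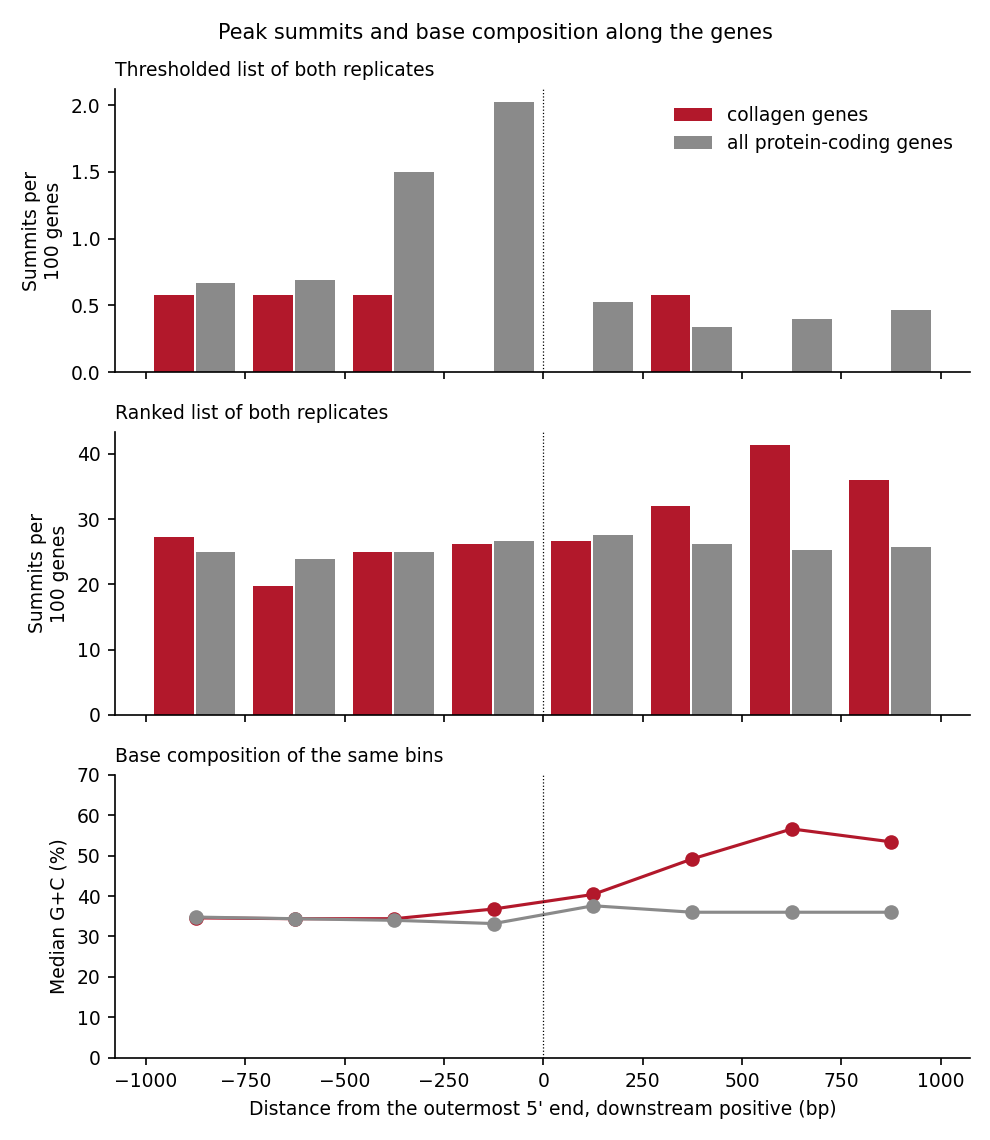
Summits per 100 genes in bins of 250 bp around the outermost 5′ end (top, thresholded list of both replicates; middle, ranked list) and median G+C content of the same bins in percent (bottom), for collagen genes and all protein-coding genes. Thresholded summits of all genes are densest in the last 250 bp before the 5′ end (2.02 per 100 genes), where collagen genes have 0, and ranked summits of collagen genes are densest at 500 to 750 bp (41.3 per 100 genes).

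The col-139 peak shows such a place in the ranked list. It was chosen after its values were seen, as the strongest peak in a collagen gene's own coding exon. It is printed 5′ to 3′ on the strand of col-139 (chrV:4653080-4653369, ce11, minus strand), with matches of GGNCCN in capitals, the letters of a glycine codon followed by a proline codon when read in frame.
col-139: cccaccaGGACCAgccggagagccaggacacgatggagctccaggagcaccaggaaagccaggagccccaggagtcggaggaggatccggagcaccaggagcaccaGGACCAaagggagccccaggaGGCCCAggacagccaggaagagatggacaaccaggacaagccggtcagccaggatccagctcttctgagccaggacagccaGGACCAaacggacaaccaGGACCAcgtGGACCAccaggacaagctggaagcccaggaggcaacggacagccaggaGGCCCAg
The window held 7 matches of GGNCCN on the printed strand and none of the B box letters GTTCNANNC on either strand, and its G+C content was 64.8%. The reverse complement of GGNCCN is NGGNCC, so that each match faces one on the other strand, shifted by 1 base. At least 1 match of GGNCCN on either strand was present in 23.5% of the 95095 ranked windows and in 25.9% of the 1694 thresholded ones. The share with 7 or more was not computed, and 0.0463% of the ranked windows had 10 or more on a strand. The window was chosen inside collagen coding sequence, so its matches describe that sequence and not the binding. The B box letters were present in 11.3% of the ranked windows.

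The stretch close to the 5′ end was read in the ranked list as well. A ranked summit lay within 250 bp of a 5′ end at 84 collagen genes (48.8%, interval 41.2 to 56.6%), against 52.2% of all protein-coding genes, a value inside that interval. The median signal of the strongest such peak was 22.3 at collagen genes, against 25 at all protein-coding genes, and the 90th percentile was 32.1, against 49.4. The medians were thus close and the upper tails apart.

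The replicates ordered the collagen genes loosely. A ranked peak was present in both single replicates at 90 collagen genes (52.3%), against 47.3% of all protein-coding genes, and in neither at 33 (19.2%), against 22.7%. Of the 90, the strongest summits of the replicates lay within 100 bp of each other at 34 (37.8%), against 35% of the 9453 protein-coding genes with a peak in both. The correlation of the strongest signals across these genes, which share their libraries and depth, was 0.225 (Spearman) and 0.267 (Pearson, log2 signals) for the collagen genes, against 0.49 and 0.605 for all protein-coding genes, as a description. The signals of the collagen genes with a peak in a replicate spanned a narrower range. Their 10th to 90th percentiles were 13.4 to 31.6 in replicate 1, against 11.7 to 35.6 for all protein-coding genes. In replicate 2 they were 12.2 to 28.2, against 11.7 to 34.2. A narrower range can lower a correlation, and its part here was not tested. In replicate 1 the 4 genes of the thresholded list, with 40.9 or more, were the highest of the 90. In replicate 2 col-63, col-85 and col-38 were the highest, with 40.6 or more, and col-185, at 32.1, lay among the others.

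**Figure D4:**
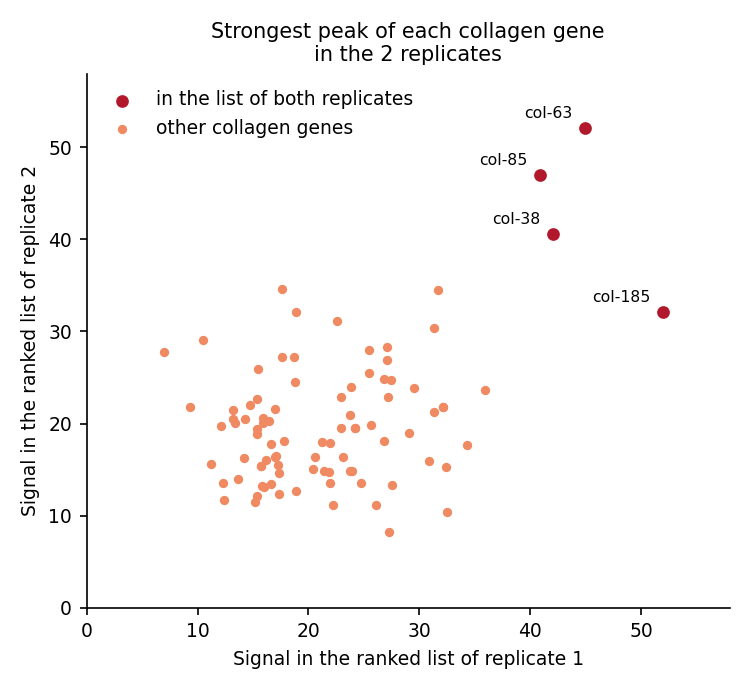
Signal of the strongest ranked peak within 1000 bp in replicate 1 (x axis) and in replicate 2 (y axis), in the units of the authors' peak caller, for the 90 collagen genes with a peak in both. The 4 dark points, col-63, col-85, col-185 and col-38, lie right of all other points, col-185 at a lower replicate 2 signal of 32.1, and the correlation over all 90 is weak (Spearman 0.225).

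Collagen genes are spread over the 6 chromosomes, with 43 on IV and 31 on X. On X 1 of 31 had a thresholded peak (3.23%), against 2.16% of the X-linked protein-coding genes. On the autosomes 3 of 141 had one (2.13%), against 7.13%. Of the 22 collagen genes of I 1 had one (4.55%), against 10.5%, and of the 31 of II 2 had one (6.45%), against 6.09%. The 13 collagen genes of III, the 43 of IV and the 32 of V held 0, against 10.5%, 7.31% and 4% of protein-coding genes there. No interval was computed by chromosome. Counts of 0 to 2 among 13 to 43 genes are too small to be told from the shares of the single chromosomes. The median signal of the strongest ranked peak was 31.1 at X-linked and 32.4 at autosomal collagen genes, against 28.4 and 31.3 at all protein-coding genes of X and the autosomes.

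Genes that work with collagen were read by the same count. Of 78 such genes, 1 had a thresholded peak, against 6.45% of all protein-coding genes. It was lam-1, the laminin beta chain of the basement membrane (IV, 5183693 to 5183982, signal 62.7, rank 1379), 925 bp downstream of its 5′ end. The peak was nearer to the 5′ end of another gene. At lam-1 replicate 1 had a signal of 35.7 and replicate 2 of 17.6, and the conservative list did not hold the peak. The other 11 basement membrane partners had none, nor did the 14 genes listed for collagen modification and processing. The highest ranked signal of these 14 was 52.5 at pdi-2, the protein disulphide isomerase subunit of prolyl hydroxylase. None of 38 cuticlins and related cuticle proteins had one (highest 43.6 at cutl-28), and none of 10 regulators of cuticle genes (highest 47.7 at nhr-23, a nuclear hormone receptor needed for moulting). The 4 collagen genes outside the naming rule, dpy-4, dpy-14, dpy-17 and cle-1, had none either (highest 58.2 at dpy-14). The median percentile of these lists ran from 46.9 for the cuticlins to 70 for the basement membrane partners, beside 58.6 for the collagen genes.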

How the data were processed

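Per the file headers, the authors deposited peak lists on assembly ce11: a ranked and a thresholded list for each replicate and for both together, a conservative list, and a further ranked list paired with it. The deposited signal is the authors' peak caller's value per peak, compared only within 1 list. The deposited score is at most 1000, and in 95091 of 95095 ranked peaks it followed, within 1 unit, from the −log10 IDR that the authors deposited beside it. The sources used here do not give the aligner, the peak caller or their settings. Depth is unknown, so signals carry no interval, and their precision rests on 2 replicates.

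Summits were joined to every annotated 5′ end within 1000 bp (Ensembl release 115, WBcel235, 6 nuclear chromosomes, and no peak lay past a chromosome end). RefSeq symbols matched 19965 of 19973 genes. For each gene the ranked peak with the highest signal was kept. The join was tested on simulated data. No test was run: shares are given beside those of all protein-coding genes, which include the collagen genes, and neighbouring genes are not independent. Sequences were read from WBcel235.

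The members and lists were chosen with earlier results of these data known. The genes named are members with a peak in any thresholded list, the 10 with the highest ranked signal, the 16 with a name other than col-, those nearest the distance limit, pathway genes with a thresholded peak, and the neighbours at these sites. The gene with the highest signal of each pathway list and the members in the closing section were added after their values were seen. Alternatives changed the list, the threshold, the distance and the assignment. Intervals came from scipy 1.17.1, tables from pandas 2.3.3 and numpy 2.4.6, and figures from matplotlib 3.10.9, under Python 3.11.15.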

Additional observations from a re-analysis of the deposited data

How the results depend on the processing

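The count of 4 collagen genes with a thresholded peak moved with the distance, to 0 within 250 bp, 2 within 500 bp and 7 within 2000 bp (adding col-106, col-181 and col-94), against 2.79%, 4.58% and 9.37% of all protein-coding genes. It was 2 without peaks near tRNA, snRNA or snoRNA genes. It was 1, col-63, when the nearest 5′ end was required as well, an alternative chosen after seeing the data. The lists of single replicates, which hold fewer peaks, gave 1 to 2. The conservative list (5), a score of 1000 (4), the nearest 5′ end (3), upstream summits (3), any base of the peak (6) and the outermost 5′ end (4) stayed within 1.5 times of it. The share of all protein-coding genes was above that of the collagen genes under each of these settings, but it lay inside the exact interval of the collagen genes in the conservative list, in either replicate's list, at a score of 1000, by nearest 5′ end and by any base of the peak.

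The median percentile of 58.6 was 50.4 within 500 bp, 52.5 within 2000 bp, 51.5 to 56.7 in single replicates and 59.3 with the nearest 5′ end, and the cause was not tested. The share of 45.1% of strongest peaks at least 500 bp downstream was 39.8 to 47.4% in single replicates, 45.2% in the ranked list paired with the conservative one and 43.8% from outermost 5′ ends, alternatives that were also chosen after seeing the data. The pathway count of 1 was 0 in the conservative list, in either replicate, within 500 bp and by nearest 5′ end, and 4 within 2000 bp (cutl-28, dpy-11, lam-1 and pxn-1). No paired analysis was possible because the 2 samples form 1 group. Depth is unknown, so a collagen gene without a peak had none detectable in these lists.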

Other observations

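A few collagen genes of other kinds are given here, chosen after their values were seen. The strongest peak close to the start of a collagen gene was that of col-158 (V), 175 bp upstream, with a signal of 49.7 and a score of 668 in the ranked list of both replicates, and 34.3 in replicate 1 and 17.6 in replicate 2. It was followed by col-42 (41.9), col-106 (40.7), col-48 (40.7) and col-98 (39.2), all within 250 bp of a 5′ end and under the threshold. The adult-specific cuticle collagen gene col-19 (X) had a signal of 24.0, 156 bp upstream, with 15.8 in replicate 1 and 13.2 in replicate 2, each at another place. The transmembrane collagen gene col-99 (IV) had 23.5, with 12.4 in replicate 1 and 11.7 in replicate 2, the latter at another place. The collagen gene col-54, with a tRNA-Arg gene (F33D11.t2) within 1000 bp of its 5′ end and no peak at it, had a signal of 51.3 and a score of 612 at 441 bp downstream, with 25.5 in both replicates.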
